A study of Mus musculus with 12 samples.

Results

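Hspa5 and Hspa8 were represented by 3 measured cDNA clones, 1 of the 3 clones annotated to Hspa5 and 2 of the 5 annotated to Hspa8, among 2151 measured clones of 15600 on the array. A clone was spotted as 2 neighbouring spots and counted as measured where the deposited table held a value for it on any array. The pair of genes was chosen by name with results of these data already known, and which of their clones could be described was selected on the presence of measured values, so having values is no finding. Over all clones with a single gene symbol, 1017 of 9192 were measured (11.1%).

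Both genes encode HSP70 chaperones, which bind exposed hydrophobic stretches of unfolded proteins and release them in cycles of ATP hydrolysis. Hspa5 (BiP, also called GRP78) works in the lumen of the endoplasmic reticulum (ER), where it receives newly made secretory proteins and holds the sensors of the unfolded protein response inactive, and its transcription rises when unfolded protein builds up. Hspa8 (Hsc70) is the constitutive cytosolic member, which folds new proteins, strips clathrin from coated vesicles and delivers proteins to lysosomes through the receptor Lamp2. Hepatocytes secrete most plasma proteins, including the haptoglobin and hemopexin that these mice lacked, and so carry a large ER.

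The series asked which liver transcripts differ when hemopexin (Hx, the plasma protein that binds free heme), haptoglobin (Hp, which binds free hemoglobin) or both are missing. The 3 null groups were Hx-null (Hp wild-type, Hx-/-), Hp-null (Hp-/-, Hx wild-type) and HpHx-null (Hp-/-, Hx-/-), all adult littermates of wild-type mice, bred from Hp+/-Hx+/- double heterozygotes on the mixed background C57/BLJ6 X 129Sv. Livers of at least 5 PBS-perfused mice of a genotype were pooled, and each null pool was hybridised on 4 arrays with 2 colours against the wild-type reference pool; by the labels the null pool carried Cy5 on replicates 1 and 2 and Cy3 on replicates 3 and 4. The 4 arrays of a genotype were treated as repeated measurements of 1 pair of pools, so every p-value below measures the spread between arrays and leaves out the spread between mice, and 1 wild-type pool stands for the control.

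Values were log ratios centred on the median of each array, and 3009 to 4165 spots per array held one. They were taken as log2, as the sources used here do not state the base. The gene names rest on an inferred numbering, in which a spot takes the annotation of the spot counted from the other end of the array: 205 of 3476 pairs of clones of 1 gene were then both measured, against 63 with the numbers read directly, and 204 against 63 without the Hspa5 and Hspa8 clones. Read directly, the table would hold 0 of 3 Hspa5 clones and 1 of 5 Hspa8 clones, the one at spots 28067 and 28068, with Hx-null, Hp-null and HpHx-null means of -0.06 ± 0.87 (SD, n = 4), -0.07 ± 0.48 (SD, n = 3) and -0.14 ± 0.80 (SD, n = 4). As no spot carried the name of Hp or Hx, the targeted genes gave no check of the labels. Of the hepatocyte markers Alb, Apoa1, Ttr and Serpina1e, 4 of 4 annotated clones were measured, as were 2 of 3 clones of macrophage markers (Fcgr1 and Fcer1g), against 0 of 3 erythroid, 0 of 1 endothelial and 0 of 8 stellate and bile duct clones. The hepatocyte list named 18 genes, of which 4 were annotated. Over all clones with 1 symbol 11.1% were measured, so 0 of so few clones is no finding about cell types.

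Which way the ratios run could not be settled. All 12 arrays set a null pool against the wild-type pool, yet arrays of Hp-null with the same labelled dye correlated at -0.77 to -0.55 over spots and those of HpHx-null at -0.63 to -0.23, while those of Hx-null correlated at 0.81 to 0.83. A first component with 69.4% of the sum of squares divided the arrays into blocks of 6, 2 per genotype, here called block A (Hx-null replicates 1 and 2, Hp-null replicates 2 and 3, HpHx-null replicates 1 and 4) and block B (the others), which differed from the labelled dyes on 4 arrays. Correlations ran from 0.46 to 0.89 within blocks and from -0.79 to -0.14 between them. Signs are given as deposited, and each comparison is repeated after turning the arrays, once by labelled dye and once by block. A ratio compares whole pools of liver RNA, so fewer cells of a type and less RNA per cell cannot be told apart.

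The Hspa5 promoter carries the sequence by which the gene answers ER stress in textbook accounts, and it is shown because other ER chaperones on the arrays share it. The window runs from 250 bases before the transcription start to 50 after it (RefSeq, GRCm38.p6, chr2:34771840-34772139, plus strand). Capitals mark the ends of the exact match to the ER stress response element.

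Hspa5 promoter: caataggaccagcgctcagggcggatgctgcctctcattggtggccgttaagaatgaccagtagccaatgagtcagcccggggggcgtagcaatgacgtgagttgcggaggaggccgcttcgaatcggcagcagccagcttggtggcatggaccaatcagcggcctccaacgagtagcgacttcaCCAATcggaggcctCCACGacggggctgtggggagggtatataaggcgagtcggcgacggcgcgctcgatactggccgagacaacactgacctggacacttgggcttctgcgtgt

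The motif searched was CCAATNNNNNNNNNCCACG on both strands, a search chosen after the array values were seen. It stood 65 to 47 bases before the Hspa5 start. Of 32851 RefSeq promoters of this length 39 held it (0.119%), against 9 of 42 promoters of the ER list described below (21.4%) and 0 of 73 of the other chaperone lists. That list was drawn up from genes of ER folding and the unfolded protein response, and the motif is named for ER stress. The higher share in it is therefore no finding. Among the measured chaperone genes the motif was found in these, with the ends in capitals.

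Hspa5: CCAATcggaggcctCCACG
Calr: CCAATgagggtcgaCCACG
Canx: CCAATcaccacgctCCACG

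In Calr it lay on the minus strand of the gene, 162 to 144 bases before the start, and in Canx on the plus strand, 145 to 127 bases before it. No promoter entry matched Hspa8. A match is a description of the letters in this window. Only exact matches were counted, so copies with changed letters were not looked for.

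The Hspa5 ratio spanned more than 2 log2 units, with both signs in each genotype. In Hx-null the clone (spots 21981 and 21982) read 0.96, 0.73, -0.61 and -0.75 on replicates 1 to 4, a mean of 0.08 ± 0.89 (SD, n = 4). In Hp-null it read -1.14, -0.34, 0.29 and -0.97, a mean of -0.54 ± 0.65 (SD, n = 4). In HpHx-null it read 0.36, -0.72, -0.24 and 0.71, a mean of 0.03 ± 0.64 (SD, n = 4). Hp-null was negative on 3 of 4 arrays and the others on 2 of 4, and the ranges of the 3 genotypes overlapped. The spread was not between spots: the duplicates correlated at 0.98 over 11 arrays, with a median gap of 0.066 and a largest gap of 0.42, on Hx-null replicate 3.

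Hspa8 varied less and its clones differed. The clone at spots 15155 and 15156 read -0.02, -0.04, 0.13 and -0.16 in Hx-null (mean -0.02 ± 0.12, SD, n = 4). Its Hp-null values were -0.53, -0.095, 0.02 and -0.26 (mean -0.22 ± 0.24, SD, n = 4), and its HpHx-null values were -0.02, -0.14, -0.31 and 0.18 (mean -0.07 ± 0.20, SD, n = 4). All of its groups overlapped, and Hp-null replicate 1 was its lowest array. The clone at spots 3133 and 3134 read -0.10, -0.06, -0.82 and -0.58 in Hx-null (mean -0.39 ± 0.37, SD, n = 4). In Hp-null it read -0.47, 0.12, 0.47 and -0.55 (mean -0.11 ± 0.49, SD, n = 4). In HpHx-null it read 0.05, -0.13 and -0.11, with no value on replicate 4 (mean -0.07 ± 0.10, SD, n = 3). This second clone was low on both block B arrays of Hx-null and of Hp-null, and spot 3133 held a value on 8 arrays only.

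**Figure D1:**
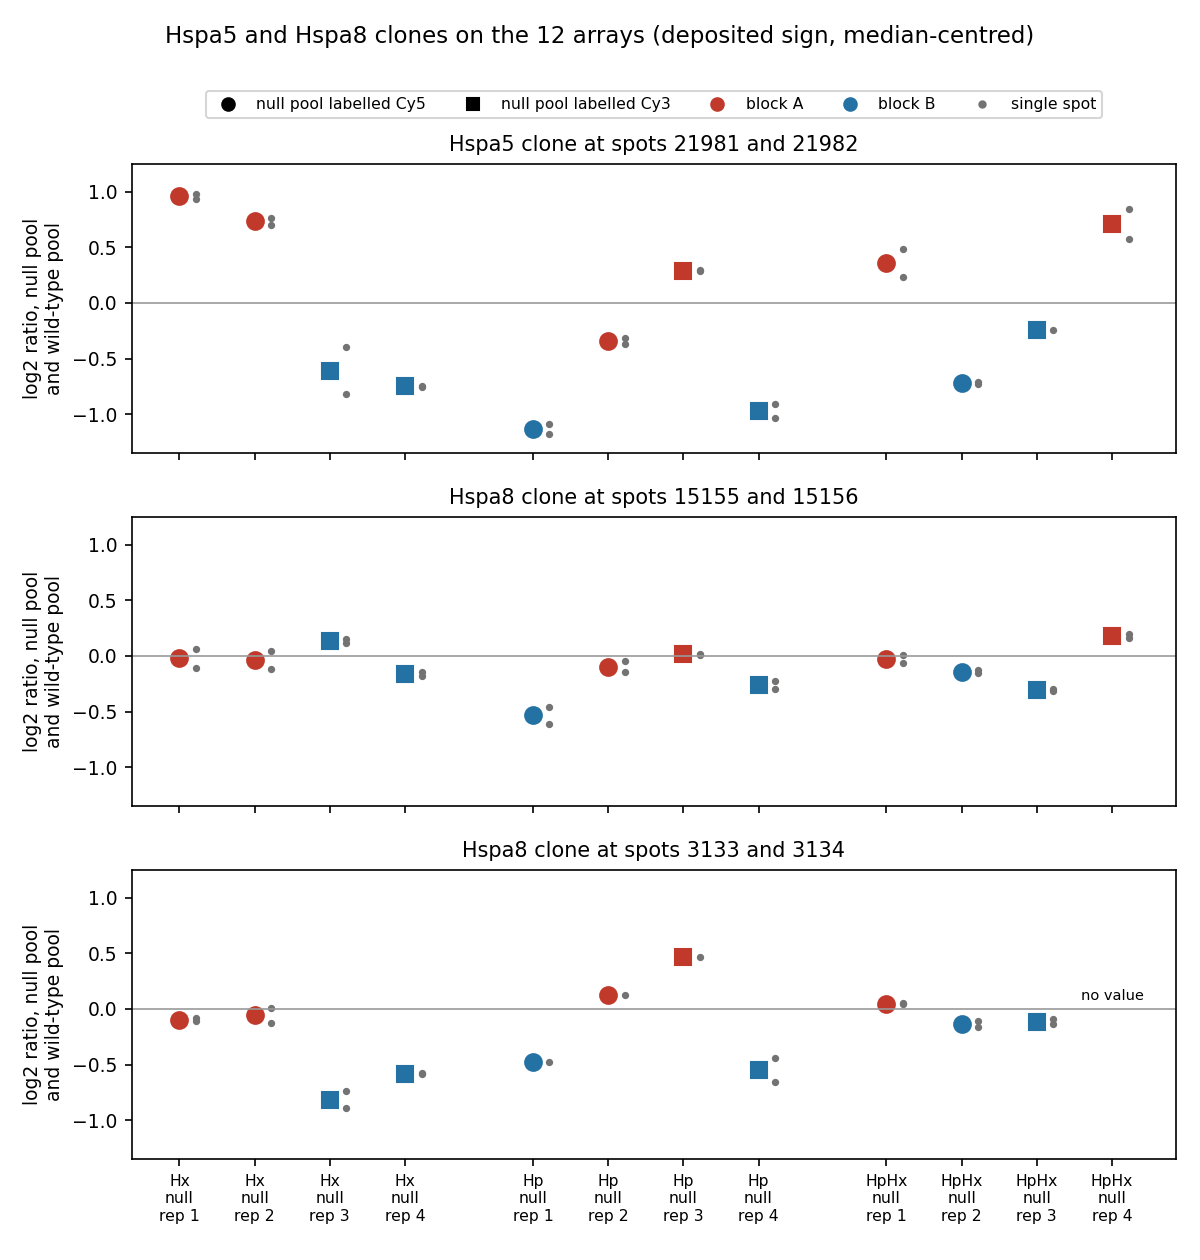
Log2 ratio (y axis) of each measured clone on each of the 12 arrays (x axis, by genotype and replicate), with shape for the labelled dye of the null pool, colour for the block and grey dots for single spots. Hspa5 runs from -1.14 to 0.96 and is negative on 6 of 6 block B arrays, while the Hspa8 clone at spots 15155 and 15156 stays between -0.53 and 0.18.

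The 2 Hspa8 clones correlated at 0.22 over the 11 arrays that held both. The median correlation over 205 pairs of clones of 1 gene was 0.86. Their median gap on an array was 0.194, below the median of 0.316 over the same pairs, and their largest gap was 0.949, on Hx-null replicate 3. Duplicate spots of the Hspa8 clones correlated at 0.89 and 0.97, so the disagreement lay between clones and not within them. Which transcript or paralog each clone detects was not tested, and the clone sequences were not used here.

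Averaged over its clones, Hspa8 read -0.06, -0.05, -0.34 and -0.37 in Hx-null, negative on 4 of 4 arrays (mean -0.21 ± 0.18, SD, n = 4). In Hp-null it read -0.50, 0.01, 0.24 and -0.41 (mean -0.16 ± 0.35, SD, n = 4), and in HpHx-null 0.01, -0.14, -0.21 and 0.18 (mean -0.04 ± 0.17, SD, n = 4), where replicate 4 rests on 1 clone. The genotypes overlapped. Within an array, Hspa5 minus Hspa8 averaged 0.29 ± 0.71 over the Hx-null arrays, -0.38 ± 0.31 over those of Hp-null and 0.07 ± 0.49 over those of HpHx-null (SD, n = 4 each), a difference that no centring of the array can change. Over the 12 arrays, which share the wild-type pool and the block pattern, the genes correlated at 0.785. With single Hspa8 clones, over the 11 arrays that held both, Hspa5 correlated at 0.57 (spots 15155 and 15156) and 0.62 (spots 3133 and 3134).

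With a term for the labelled dyes, neither chaperone passed the test (limma, adjusted p under 0.05) in any of the 6 comparisons. Against the wild-type pool, Hspa5 had a ratio of 0.08 (SE 0.35, adjusted p = 1) for Hx-null, -0.54 (SE 0.35, adjusted p = 0.999) for Hp-null and 0.03 (SE 0.35, adjusted p = 0.999) for HpHx-null. Hspa8 was at -0.21, -0.16 and -0.04 (SE 0.14 each), with adjusted p of 1, 0.999 and 0.999. The 95% intervals of Hspa5 ran from -0.70 to 0.87, -1.32 to 0.24 and -0.76 to 0.81 in the same order, and those of Hspa8 from -0.51 to 0.10, -0.47 to 0.14 and -0.35 to 0.27, so differences of that size remain possible. Few features of any kind passed: 12 of 1865 (0.643%) for Hx-null, 0 of 2017 (0%; 48 at an unadjusted p under 0.05) for Hp-null and 0 of 1711 (0%; 93 unadjusted) for HpHx-null.

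With the deposited signs, Hspa5 had its lowest mean ratio in Hp-null among the 3 pools. The difference of Hp-null from Hx-null was -0.62 (SE 0.50, adjusted p = 0.997), that of HpHx-null from Hp-null 0.57 (SE 0.50, adjusted p = 0.998) and that of HpHx-null from Hx-null -0.06 (SE 0.50, adjusted p = 0.999). For Hspa8 the same differences were 0.04, 0.12 and 0.17 (SE 0.20 each), with adjusted p of 0.997, 0.998 and 0.999. By their means the pools ran Hp-null, HpHx-null, Hx-null for Hspa5 and Hx-null, Hp-null, HpHx-null for Hspa8, from low to high, and no neighbours in either order differed beyond their spread in this fit. Over all features 11 of 1848 (0.595%) passed for Hp-null against Hx-null, 0 of 1690 (34 unadjusted) for HpHx-null against Hp-null and 0 of 1654 (15 unadjusted) for HpHx-null against Hx-null.

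Most of the spread of Hspa5 followed the blocks. Its block A values ran from -0.34 to 0.96 (mean 0.45) and its block B values from -1.14 to -0.24 (mean -0.74), a gap of 1.19 with a small overlap between Hp-null replicate 2 and HpHx-null replicate 3. A larger gap was seen for 127 of 1129 features measured on all arrays (11.2%). Hspa8 averaged 0.06 in block A and -0.33 in block B, a gap of 0.39 that 538 features exceeded (47.7%), and its clones gave gaps of 0.22 (spots 15155 and 15156) and 0.54 (spots 3133 and 3134). The correlation with the loadings that define the blocks was 0.92 for Hspa5 and 0.89 for the mean of the Hspa8 clones. Singly, these clones correlated with the loadings at 0.59 (spots 15155 and 15156) and 0.79 (spots 3133 and 3134, 11 arrays). The hepatocyte transcripts moved with the blocks too, with gaps of 1.51 for Alb, 1.90 for Apoa1 and 1.34 for Ttr; their part in the Hspa5 pattern was not tested.

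Within each block, and with the deposited signs, Hspa5 was lower in Hp-null than on every array of the other pools. In block A its means were 0.85, -0.03 and 0.54 for Hx-null, Hp-null and HpHx-null, the highest Hp-null array reading 0.29 and the lowest of the others 0.36. In block B they were -0.68, -1.055 and -0.48, the highest Hp-null array reading -0.97 and the lowest of the others -0.75. Of 1129 features, 18 (1.59%) lay below the other pools in this way and 26 above. The margin in block A rests on the mean of both spots: spot 21981 alone read 0.29 on the highest Hp-null array and 0.24 on the lowest of the others, which overlap. HpHx-null, which also lacks haptoglobin, lay 0.56 above Hp-null in block A and 0.57 above it in block B. Hx-null lay above Hp-null by 0.87 in block A and 0.38 in block B, and HpHx-null minus Hx-null was -0.31 and 0.20. With block B turned, Hp-null would be the lowest pool in block A and the highest in block B. Hspa8 showed no such order: Hp-null minus Hx-null was 0.18 in block A and -0.10 in block B.

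With the block in place of the labelled dyes, 1 of the 12 comparisons of the 2 chaperones passed, that of Hspa5 in Hp-null. Its ratio was again -0.54 (SE 0.12, 95% interval -0.80 to -0.28, adjusted p = 0.0356), a size of 1.45-fold if the values are log2, with 3 of 4 arrays negative. In Hp-null 56 of 2017 features (2.78%) passed. The block was read off the same values, so p-values with it are too small, and the gene was picked up with this call known. Of the 4 measured hepatocyte markers, Ttr passed in the same comparison and fit at -0.55 (SE 0.13, adjusted p = 0.0386), and it correlated with Hspa5 at 0.97 over 11 arrays. The others did not pass, with ratios of -0.01 for Alb (adjusted p = 0.985), -0.17 for Apoa1 (adjusted p = 0.479) and 0.53 for Serpina1e (adjusted p = 0.137), nor did the macrophage markers Fcgr1 (-0.08) and Fcer1g (0.01). The part of these markers in the Hspa5 value was not tested. The Hspa5 call was lost without Hp-null replicate 1 (-0.54, adjusted p = 0.113), without Hp-null replicate 2 (-0.39, adjusted p = 0.226) and without HpHx-null replicate 4 (-0.54, adjusted p = 0.0712), and also with quantile scaling of the arrays (-0.39, adjusted p = 0.143). Hspa5 did not pass in Hx-null (adjusted p = 0.816; 39 of 1865 features passed, 2.09%) or HpHx-null (adjusted p = 0.965; 96 of 1711 passed, 5.61%).

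The differences between null pools did not pass for Hspa5 with the block term either. Hp-null against Hx-null had an adjusted p of 0.13 (95% interval -0.99 to -0.26; 21 of 1848 features passed, 1.14%). HpHx-null against Hp-null had an adjusted p of 0.218 (95% interval 0.20 to 0.93; 0 of 1690 features passed, 207 unadjusted), and HpHx-null against Hx-null one of 0.996 (95% interval -0.42 to 0.31; 3 of 1654 passed, 0.181%). Hspa8 reached adjusted p of 0.197, 0.251 and 0.932 for Hx-null, Hp-null and HpHx-null, and of 0.888, 0.618 and 0.996 for the differences in the order above. Taken singly, its clone at spots 3133 and 3134 was at -0.39 in Hx-null (SE 0.09, adjusted p = 0.0544), where the clone at spots 15155 and 15156 was at -0.02 (adjusted p = 0.936).

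The sign of these ratios depended on how the arrays were turned. Turned by the labelled dyes, Hspa5 was at 0.76 (adjusted p = 0.34), -0.20 and -0.21 for Hx-null, Hp-null and HpHx-null, and Hspa8 at 0.15, -0.08 and -0.02, and no feature passed in any comparison (227, 0 and 0 unadjusted in the 3 nulls). Turned by the block, Hspa5 was positive in each pool, at 0.76 (adjusted p = 0.00364), 0.51 (adjusted p = 0.0248) and 0.51 (adjusted p = 0.0348). Hspa8 was then at 0.15 (adjusted p = 0.0991), 0.29 (adjusted p = 0.00404) and 0.13 (adjusted p = 0.15). That turning makes every feature with a block gap differ from 0, and 49.0%, 59.6% and 44.4% of all features passed in Hx-null, Hp-null and HpHx-null, so nothing is read from these calls. After it the Hspa5 differences were -0.25 for Hp-null against Hx-null, -0.01 for HpHx-null against Hp-null and -0.25 for HpHx-null against Hx-null. Turned by the labelled dyes they were, in the same order, -0.96 (SE 0.41, adjusted p = 0.655), -0.01 and -0.97 (SE 0.41, adjusted p = 0.473). The Hspa8 differences were 0.14, -0.16 and -0.02 turned by the block, and -0.23, 0.06 and -0.18 turned by the labelled dyes.

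**Figure D2:**
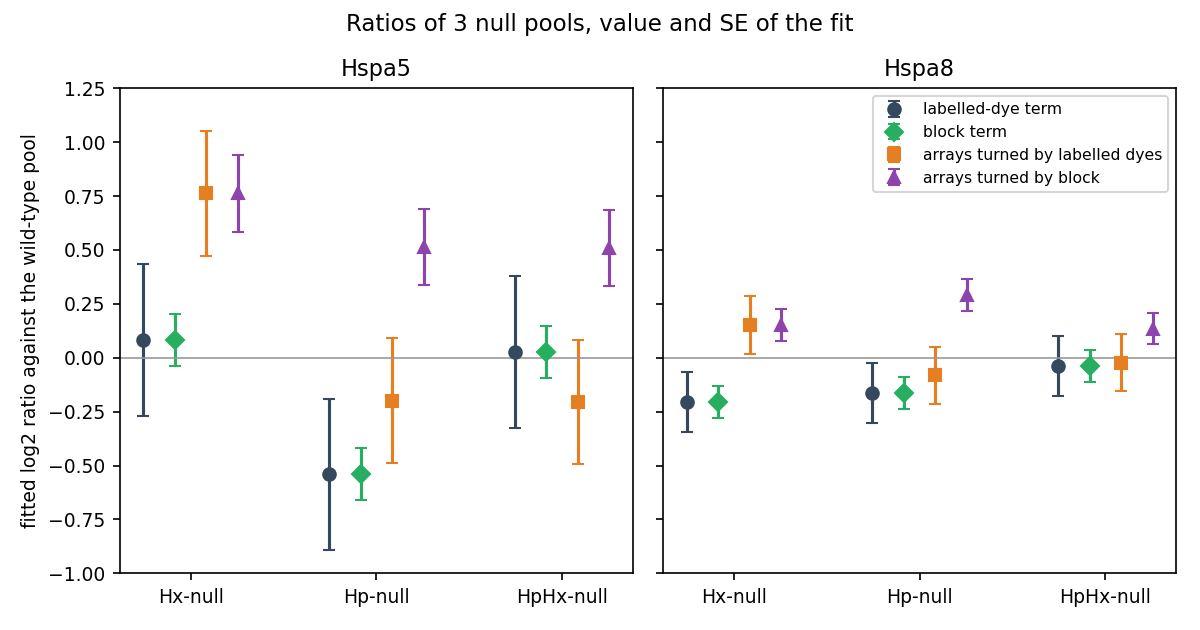
Fitted log2 ratio of Hspa5 and Hspa8 in each null pool against the wild-type pool (y axis) by genotype (x axis), under 4 treatments of the arrays; bars are 1 SE of the fit. Hspa5 in Hp-null is at -0.54 with either nuisance term, -0.20 turned by the labelled dyes and 0.51 turned by the block.

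Of 117 other chaperone genes in 4 lists, 86 were annotated and 16 measured, and none passed in any comparison with either term, where 0 to 5.61% of all features did. All 16 were tested in Hx-null and Hp-null and 14 in HpHx-null. With the deposited signs, their median ratio with the labelled dyes in Hp-null was 0.03, beside -0.02 over all features, 6 of 16 were negative, and 0 of 16 lay below Hspa5. In Hx-null the median was -0.04 with 11 of 16 below Hspa5, and in HpHx-null it was -0.0016 with 9 of 14 below it. These places changed with the sign: after turning by labelled dye, 15 of 16 lay below Hspa5 in Hx-null, 0 of 16 in Hp-null and 1 of 14 in HpHx-null, and after turning by block 15 of 16, 13 of 16 and 12 of 14 did. Turned by labelled dye 0 of them passed, and turned by block 9 of 16, 7 of 16 and 8 of 14 passed, where 49.0%, 59.6% and 44.4% of all features did.

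The HSP70 family list (13 genes, 7 annotated) had 1 measured member, the mitochondrial chaperone Hspa9. It read -0.14 ± 0.07, 0.07 ± 0.09 and 0.02 ± 0.13 (SD, n = 4) in Hx-null, Hp-null and HpHx-null. It hardly followed the blocks, with a gap of 0.07.

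The list of ER folding and the unfolded protein response (49 genes, 35 annotated) had 6 measured members. Calr (calreticulin, the lectin chaperone that also stores calcium) had values on 11 arrays, from 0.73 to 1.19 in block A and -0.91 to -0.56 in block B, and its ratio with the labelled dyes was 0.05 (SE 0.44) in Hp-null. Pdia3 (the disulfide isomerase that works with calreticulin) ran from 0.41 to 0.97 in block A and -0.82 to -0.41 in block B and was at -0.14 (SE 0.32) in Hp-null. Both therefore had block gaps near or above that of Hspa5 (1.62 and 1.20), and they correlated with it at 0.89 and 0.92 over 11 arrays. Sil1, the nucleotide exchange factor of Hspa5, went the other way, from -0.58 to -0.14 in block A and 0.01 to 0.29 in block B, and correlated with Hspa5 at -0.84. Canx (calnexin, the membrane-bound lectin chaperone, named for its promoter) had values on 9 arrays, a block gap of 0.29 and a correlation with Hspa5 of 0.51. Spcs2 and Ssr2, named after their values were seen, correlated with Hspa5 at -0.82 and -0.50 over 11 arrays. Genes with the promoter motif had gaps from 0.29 to 1.62. Where the search found no motif, gaps were 1.20 for Pdia3, -0.43 for Sil1, -0.50 for Spcs2 and -0.20 for Ssr2. The part of the motif in these gaps was not tested.

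The list of cytosolic and mitochondrial chaperones and cochaperones (47 genes, 40 annotated) had 8 measured members. Bag3, a nucleotide exchange factor of Hspa8, ran from -0.40 to -0.08 in block A and 0.08 to 0.33 in block B. It correlated with Hspa8 at -0.66 and with Hspa5 at -0.89. The medians over the same 545 genes were -0.64 with Hspa8, near the Bag3 value, and -0.65 with Hspa5. Cct5, a subunit of the chaperonin that folds actin and tubulin, had a block gap of -0.27, and Dnaja3, a mitochondrial DNAJ cochaperone, one of -0.79. Stip1, which hands clients from Hspa8 to Hsp90 and was named after its values were seen, had a gap of 0.63 and correlated with Hspa8 at 0.88. The remaining members were named after their values were seen too. Chordc1 had a gap of 1.46 and correlated with Hspa8 at 0.86 over 10 arrays. Gap and correlation were -0.49 and -0.74 for Tcp1, -0.03 and -0.13 for Hspe1, and -0.04 and -0.41 for Hsp90aa1. The list of clathrin coats and Hspa8-dependent uncoating and autophagy (8 genes, 4 annotated) had 1 measured member, Lamp2. Its ratios were 0.19 (Hx-null) and 0.18 (Hp-null), and its block gap was 0.32. It held no value on HpHx-null replicates 2 and 3, both in block B, so HpHx-null was not tested. Over the other 10 arrays it correlated with Hspa8 at 0.93. These correlations are descriptions over arrays that share the wild-type pool and the block pattern.

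**Figure D3:**
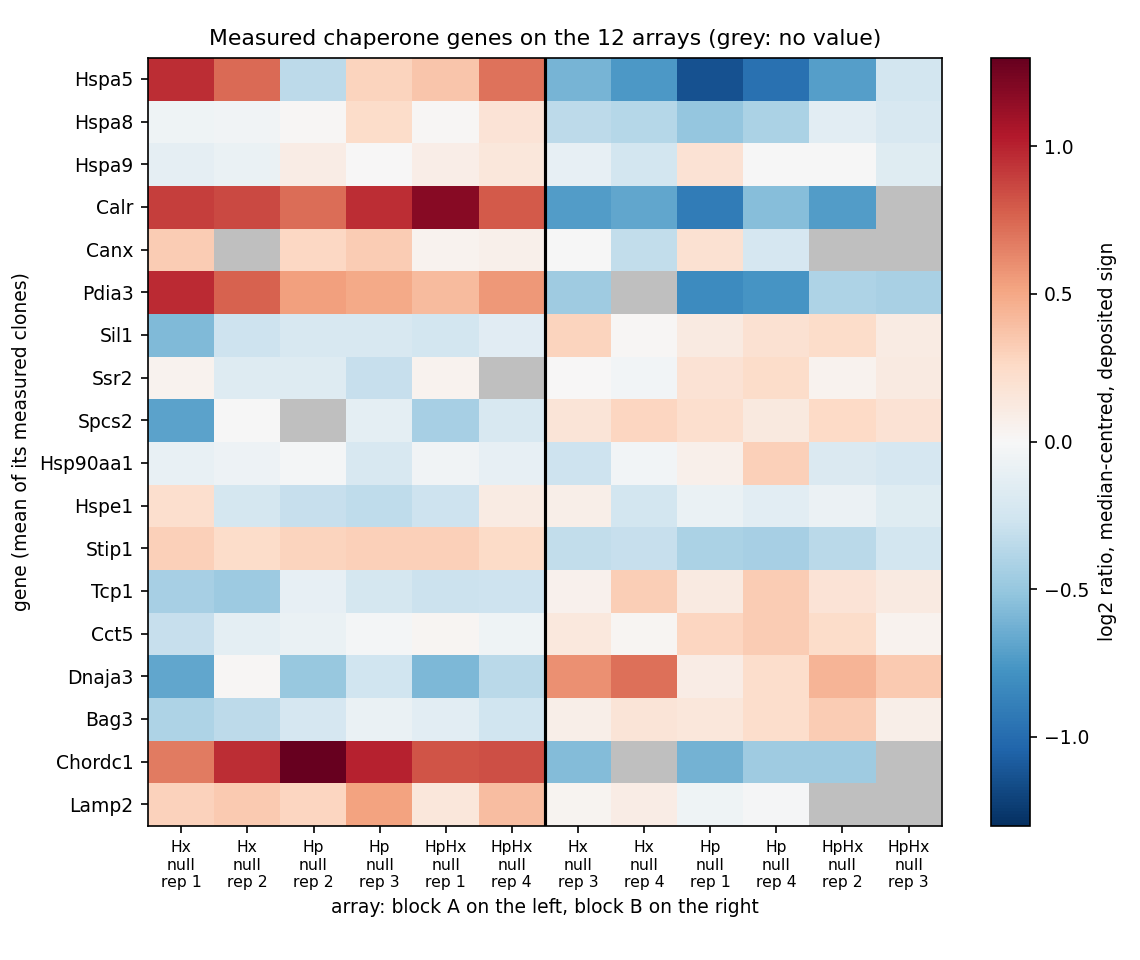
Log2 ratios (colour scale, deposited sign) of Hspa5, Hspa8 and the 16 other measured chaperone genes (rows) on the 12 arrays (columns, block A left of the line and block B right of it); grey means no value. Hspa5, Calr and Pdia3 are mostly positive in block A and negative in block B, with gaps of 1.19, 1.62 and 1.20, while Sil1 and Bag3 have gaps of -0.43 and -0.41.

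Among 545 other named genes with values on all 12 arrays, those most like Hspa5 by Pearson correlation were Ftl1 (ferritin light chain, 0.97), Tecpr1 (0.97), Selenop (the secreted selenium carrier, 0.96), Selenow (0.96) and Gstm2 (a glutathione transferase, 0.95). With the deposited signs, each had its lowest mean in Hp-null: -0.94 for Ftl1, -0.87 for Tecpr1, -0.33 for Selenop, -0.28 for Selenow and -0.25 for Gstm2, a likeness that their choice partly fixes. Turned by labelled dye, Hp-null was the lowest pool for 1 of the 5 (Gstm2), and turned by block for 1 (Tecpr1). By rank correlation 4 of the 5 stayed in the first 5, and with the block means taken out 2 did, Ftl1 and Tecpr1 (0.88 and 0.87). Ppia then came first at 0.93, with a correlation of -0.04 before. Second was the macrophage marker Fcgr1 at 0.90, with a correlation of 0.11 before. Its means were 0.43, -0.08 and 0.52 in Hx-null, Hp-null and HpHx-null, an order that its choice partly fixes. The other measured macrophage marker, Fcer1g, correlated with Hspa5 at -0.60 before the block means were taken out. The part of these genes in the Hspa5 pattern was not tested.

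For Hspa8 the closest were Serpina1e (an antitrypsin secreted by hepatocytes, 0.91), Mtmr12 (0.91), Depdc5 (0.91), Cacna1d (0.91) and Oaz2 (an inhibitor of polyamine synthesis, 0.90). Only 1 of these, Oaz2, stayed in the first 5 by rank correlation, and 0 did with the block means taken out, where Tdo2 (which degrades tryptophan in the liver) came first at 0.86. Hspa8 was the 53rd of 545 genes by likeness to Hspa5, and Hspa5 the 43rd of 545 by likeness to Hspa8. Their correlation of 0.785, with the Hspa8 clones averaged, lay above the medians over these genes, -0.65 with Hspa5 and -0.64 with Hspa8.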

How the data were processed

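The authors deposited 1 table of log ratios for 31200 spots and 12 two-colour arrays, taken here as log2 values; for the log base, normalization, spot filter and direction, the sources used here say nothing. Pools, dyes and replicates are per the labels' protocols. Arrays were centred on their median, the 2 spots of a clone averaged, and clones of 1 symbol averaged, which gave 2052 features. Gene names came from the platform annotation, with the spot number taken as 31201 minus the number in it, an inference from the values, and were updated through a RefSeq table of GRCm38.p6. The members and lists were chosen with earlier results of these data known.

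The fit used R 4.3.3 and limma 3.58.1: lmFit and robust eBayes on all 12 arrays, a coefficient per genotype and a term for the labelled dye (0.5 for Cy5 and the negative of it for Cy3), Benjamini-Hochberg adjustment over all features, threshold 0.05. Tests needed values on 3 of the 4 arrays in every genotype of a comparison, or on 2 with an array left out. A dye term with missing values shifts a coefficient from the mean. The number of arrays limits the precision, and the SE also depends on the nuisance term; spot intensities were not analysed here. Named genes were both chaperones with all their measured clones, list members that passed and otherwise at most 3 per list, those on the most arrays in alphabetical order, and the 5 genes most like each chaperone. Further members of the ER list and of the cytosolic and mitochondrial list were named after their values were seen. Alternatives were other nuisance terms, scalings, filters, sign turnings and left-out arrays; turning by the block was chosen after seeing the data. The fit was tested on simulated data. Promoter letters were searched with Python 3.11.15.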

Additional observations from a re-analysis of the deposited data

How the results depend on the processing

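Over the 12 comparisons of Hspa5 and Hspa8, 245 alternative values kept their direction and side of the threshold, and 34 changed sign. Many of the 245 could not change direction, so their number does not measure how stable the ratios are. Another nuisance term, eBayes without the robust option or leaving out an array of an uninvolved genotype returned the same ratio, as for Hspa5 in Hp-null (-0.54). The test was newly passed by 5 values, 2 of them with the other sign: Hspa5 in Hp-null with the block term (-0.54) and, turned by the block, Hspa5 in Hx-null (0.76), HpHx-null (0.51) and Hp-null (0.51, other sign) and Hspa8 in Hp-null (0.29, other sign). Turned by the block, the sign changed for Hspa5 in Hp-null (0.51) and HpHx-null against Hp-null (-0.0059), and for Hspa8 in Hx-null (0.15), Hp-null (0.29), HpHx-null (0.13), HpHx-null against Hx-null (-0.018) and HpHx-null against Hp-null (-0.16). Turned by the labelled dyes, it changed for Hspa5 in HpHx-null (-0.21) and HpHx-null against Hp-null (-0.0082), and for Hspa8 in Hx-null (0.15), Hp-null against Hx-null (-0.23) and HpHx-null against Hx-null (-0.18). Quantile scaling gave -0.043 for Hspa5 in HpHx-null and -0.016 for Hspa8 in HpHx-null against Hp-null, and values without centring gave -0.0081 for Hspa5 in HpHx-null. The Hspa8 clone at spots 15155 and 15156 alone, the only one on all 12 arrays, gave -0.20 for Hp-null against Hx-null and -0.052 for HpHx-null against Hx-null. The cause was not tested in these cases.

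With an array left out, the sign changed within these ranges: for Hspa5 -0.20 to 0.35 in Hx-null, -0.27 to 0.35 in HpHx-null and -0.36 to 0.27 in HpHx-null against Hx-null; for Hspa8 -0.13 to 0.018 in HpHx-null, -0.12 to 0.17 in Hp-null against Hx-null and -0.0089 to 0.28 in HpHx-null against Hp-null. Hspa5 in Hp-null kept its sign, from -0.90 to -0.27.

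Counts of features that passed went from 12 to 39 in Hx-null, 0 to 56 in Hp-null, 0 to 96 in HpHx-null, 11 to 21 for Hp-null against Hx-null and 0 to 3 for HpHx-null against Hx-null with the block term; without centring they were 7 in Hx-null and 0 for Hp-null against Hx-null. Of the 5 genes most like Hspa5, 4 were shared by rank correlation and 2 without the block means; of those most like Hspa8, 1 and 0. With the replicate number as a replicate block in place of the dye term, Hspa5 in Hp-null stayed at -0.54 and 0 features passed in each comparison. Of 12 same-numbered pairs of arrays from different genotypes, 8 had negative correlations of their deviations (-0.85 to 0.85). Each number holds arrays of both blocks, and arrays of different blocks correlated at -0.79 to -0.14, so this count cannot show whether they were pairs. The numbers were not taken as pairs.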
